A study of Mus musculus with 2 samples.

Results

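The circadian repressors of the mouse liver were described on 2 microarrays, fasting and feeding: the period genes Per1, Per2 and Per3, the cryptochromes Cry1 and Cry2, the REV-ERB receptors Nr1d1 and Nr1d2, the DEC factors Bhlhe40 and Bhlhe41, and Ciart, which encodes the repressor CHRONO. These 10 genes were chosen by name for their place in the clock, with earlier results of these data known. Their probes were found by transcript identifier. They are 10 of 20652 genes named on the array and hold 11 of its 39402 probes. The fasting group was male mice deprived of food overnight, for 16 h according to 1 label and for 14 to 16 h according to another. The feeding group was male mice that 1 label describes as fed ad libitum and another as given food after the fast. Per the study's methods the animals were C57BL/6J mice, about 8 to 12 weeks old, under a 12-h light and 12-h dark cycle, and the labels name no other treatment or allele in either group. RNA from the livers of 3 mice was pooled for each group, so there was 1 sample per group, no p-value or standard error of the difference can be given, and the spread between mice is not known. The hour at which the livers were taken is not given in the sources used here, so feeding state and hour of collection cannot be told apart for these genes, whose transcripts cycle over the day.

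In the core loop of the clock, the activators CLOCK and BMAL1 bind E-box motifs and drive the period, cryptochrome, REV-ERB, DEC and CHRONO genes. The products of these genes then act back: PER and CRY proteins form complexes that silence CLOCK and BMAL1, DEC proteins compete for the E-boxes, CHRONO binds BMAL1, and the REV-ERB receptors repress the Bmal1 gene itself. In liver the phase of this loop is set in part by meal time, and Per1 is also known as an immediate target of cAMP signaling through CREB and of glucocorticoids.

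Upon feeding the repressors split. Per2, with a 5.15-fold higher signal, and Bhlhe40, with a 3.56-fold higher signal, were the members past 2-fold on the higher side, and Per1, 3.86-fold lower, and Nr1d2, 2.07-fold lower, were those on the lower side. Nr1d1 and Ciart were nearly 2-fold lower, Cry1 was 1.79-fold higher and Cry2 differed by 1.22-fold. Per3 and Bhlhe41 were too dim to give a change. Thus the closely related Per1 and Per2 transcripts stood at opposite ends of the 8 changes, 4.31 apart on the log2 scale.

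The regions just before the transcription start were searched, because E-boxes are the known binding sites of CLOCK and BMAL1, and cAMP response elements those of CREB. The regions are shown for the members that were lower upon feeding by 2-fold or nearly so, and matches in the other windows are given below. Each run is 250 bases, 5′ to 3′ on the strand of the gene, from RefSeq on the build GRCm38.p6, and ends at the base before the start. Capitals mark the E-box CACGTG, the E-prime box CACGTT (read as AACGTG on the opposite strand) and TGACG, the core of the cAMP response element. Per1 has 2 annotated starts, and the windows lie at chr11:69098699-69098948 and chr11:69099902-69100151, both on the plus strand. Those of the other genes are on the minus strand, Nr1d2 at chr14:18239107-18239356, Nr1d1 at chr11:98775378-98775627 and Ciart at chr3:95882229-95882478. The Nr1d2 run holds none of these and has no capitals. The window of Cry1, which was higher upon feeding and is not shown, holds an E-box, an E-prime box and the TGACG core. Whether these motifs have a part in any of the changes was not tested. Nr1d1 and Ciart were added after their values were seen.
Per1, first start: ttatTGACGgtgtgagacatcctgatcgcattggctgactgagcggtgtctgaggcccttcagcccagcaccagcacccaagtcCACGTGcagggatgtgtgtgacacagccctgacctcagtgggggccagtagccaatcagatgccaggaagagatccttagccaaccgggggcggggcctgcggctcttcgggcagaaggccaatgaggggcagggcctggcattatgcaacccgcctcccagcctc
Per1, second start: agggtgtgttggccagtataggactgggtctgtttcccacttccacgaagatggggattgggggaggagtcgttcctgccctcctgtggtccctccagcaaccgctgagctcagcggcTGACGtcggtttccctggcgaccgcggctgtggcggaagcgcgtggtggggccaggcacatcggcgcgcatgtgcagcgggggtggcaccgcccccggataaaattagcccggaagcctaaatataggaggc
Nr1d2: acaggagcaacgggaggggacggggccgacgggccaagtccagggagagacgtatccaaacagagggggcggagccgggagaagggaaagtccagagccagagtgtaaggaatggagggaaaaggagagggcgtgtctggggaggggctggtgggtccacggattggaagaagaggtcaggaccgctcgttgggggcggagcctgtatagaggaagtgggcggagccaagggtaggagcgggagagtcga
Nr1d1: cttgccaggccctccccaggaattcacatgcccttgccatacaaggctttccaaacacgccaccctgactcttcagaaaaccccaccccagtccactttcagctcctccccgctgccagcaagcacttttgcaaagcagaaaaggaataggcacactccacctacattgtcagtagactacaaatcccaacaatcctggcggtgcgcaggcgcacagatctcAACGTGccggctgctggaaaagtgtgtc
Ciart: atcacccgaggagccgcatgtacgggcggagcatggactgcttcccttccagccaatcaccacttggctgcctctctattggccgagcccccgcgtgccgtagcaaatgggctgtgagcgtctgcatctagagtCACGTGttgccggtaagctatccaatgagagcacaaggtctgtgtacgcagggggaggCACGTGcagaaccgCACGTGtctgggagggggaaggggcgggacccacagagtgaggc

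Of the 10 members, 8 matched a promoter entry, with 9 windows in all; Per2 and Bhlhe40 did not match. Both strands were searched. The E-box was in 4 of the 9 windows, those of Per1 (first start, first base at -166 from the start), Cry1 (-60), Bhlhe41 (-153) and Ciart, where it occurred 3 times (-116, -58 and -44); 6.02% of all 32851 windows of this length held it. The E-prime box was in 3 windows, Cry1 (-79), Cry2 (-166) and Nr1d1 (-28), against 3.85% of all windows. The TGACG core was in 4 windows, both of Per1 (-246 and -132), Cry1 (-8) and Cry2 (-209), and is a common sequence, present in 17.8% of all windows. The full cAMP response element TGACGTCA, which contains this core and was in 1.55% of all windows, was in 0 of the 9. The D-box, TTATGTAA or TTACGTAA, to which the PAR bZIP factors and NFIL3 bind, was in 0.931% of all windows and in the Per3 window, where it occurred 2 times (-205 and -158). The nuclear receptor site AGGTCA was in 2 windows, the first of Per1 (-137) and that of Nr1d2 (-77), against 14.0% of all windows, and the heat shock element GAANNTTC, in 6.69% of all windows, was in 0. Of the 3 members with a higher signal upon feeding, Cry1 is the one with a window here. A match is a run of letters, not a measured binding site.

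**Figure D1:**
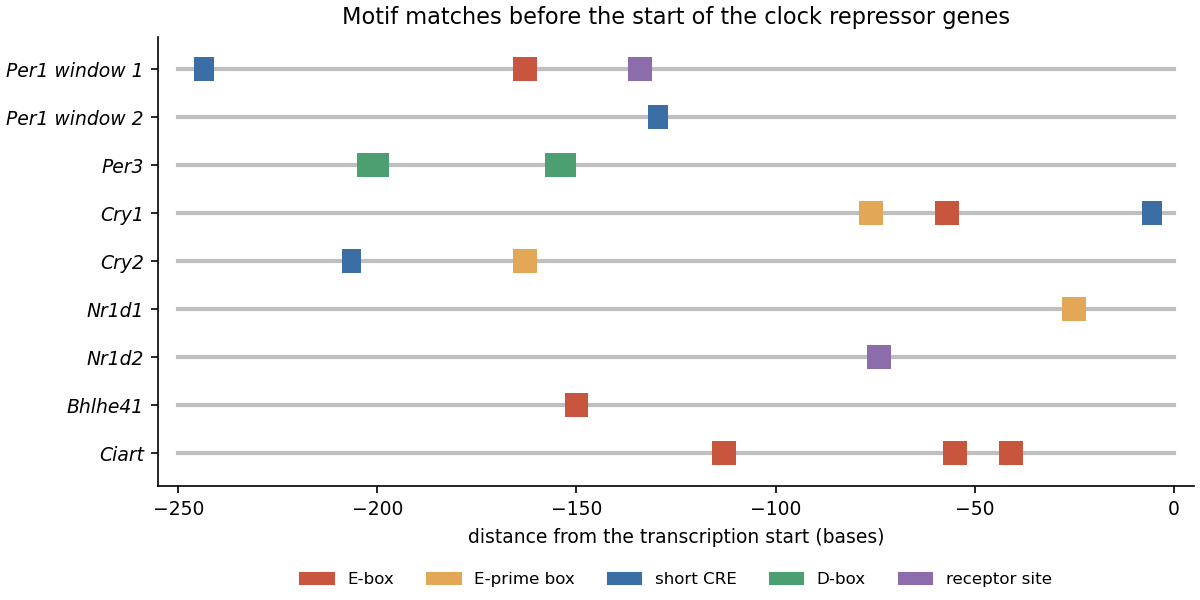
Positions of the motif matches in the 250 bases before the start of the 8 member genes with a promoter entry; the horizontal axis is the distance from the transcription start in bases, each grey line is 1 window and each block 1 match on either strand (short CRE is the TGACG core, receptor site is AGGTCA). Ciart held 3 E-boxes and Per3 held 2 D-boxes, and the first Per1 window held an E-box, a TGACG core and a receptor site.

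Each array gives, for every spot, a processed signal, which is the fluorescence in arbitrary units after background subtraction, with the error that the scanner software estimates for it. The share of transcript spots that the software called well above background was 63.1% on the fasting array and 72.3% on the feeding array, and no spot was saturated. The scanner output gives the same scan time and scan identifier for both arrays, with different barcodes. Processed signals were quantile normalized, which gives both arrays the same distribution, and all changes are log2 differences of the normalized signal, feeding minus fasting. The spread of a change on the array was taken from the 40 probes nearest in signal among the 399 that are spotted 10 times; it covers the printing and reading of the spot and not the mice. A level is not read as the amount of 1 gene against another, because each probe binds with its own strength. Signals of different probes were still used to choose the probe of a gene and to group genes by brightness. They were also added up for cell type markers, where the brightest markers weigh most. A gene counted as measured where its probe was well above background on at least 1 array, which held for all 10 members (Per3 and Bhlhe41 through the feeding array only) and for 16342 genes in all, and 15198 of these had a change that could be given. In pooled liver, fewer cells of a type and less RNA per cell cannot be told apart.

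Per1 (probe A_55_P1970033, transcript NM_011065), a period gene, had a processed signal of 5806 ± 581 (scanner error) upon fasting and 1459 ± 146 upon feeding. The normalized signals of 5754 and 1489 give a change of -1.95, with a spread of replicate spots of 0.05 (SD) and a scanner error of 0.20 on the same scale. The fasting array was thus the high one for Per1, by far more than either measure of error on the array. Counted from the lowest, Per1 took rank 168 of the 15198 changes.

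Per2 (A_51_P282760, NM_011066), its paralog, went the opposite way, with a processed signal of 331.5 ± 33.3 upon fasting and 1587 ± 159 upon feeding. The change was 2.36 on the log2 scale (normalized signals of 313.2 and 1613), with a spot SD of 0.06 and a scanner error of 0.20. Per2 took rank 44 of 15198 from the highest, and 0.283% of genes had a larger increase. The difference between the changes of Per2 and Per1 was 4.31, a 19.9-fold change of their ratio, beside a spot SD of 0.08 and a scanner error of 0.29 for that difference. Each of these genes has 1 probe on the array, so no second probe stands behind either value.

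Per3 (A_51_P258493, NM_011067), the third period gene, was near background. It gave a processed signal of 5.66 ± 4.03 upon fasting, where it was not well above background, and 11.5 ± 2.13 upon feeding, where it was. The lowest normalized signal among probes well above background was 14.4 on the fasting array and 6.55 on the feeding array, so the fasting signal of Per3 may lie anywhere up to a value above its feeding signal, and no fold is given.

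**Figure D2:**
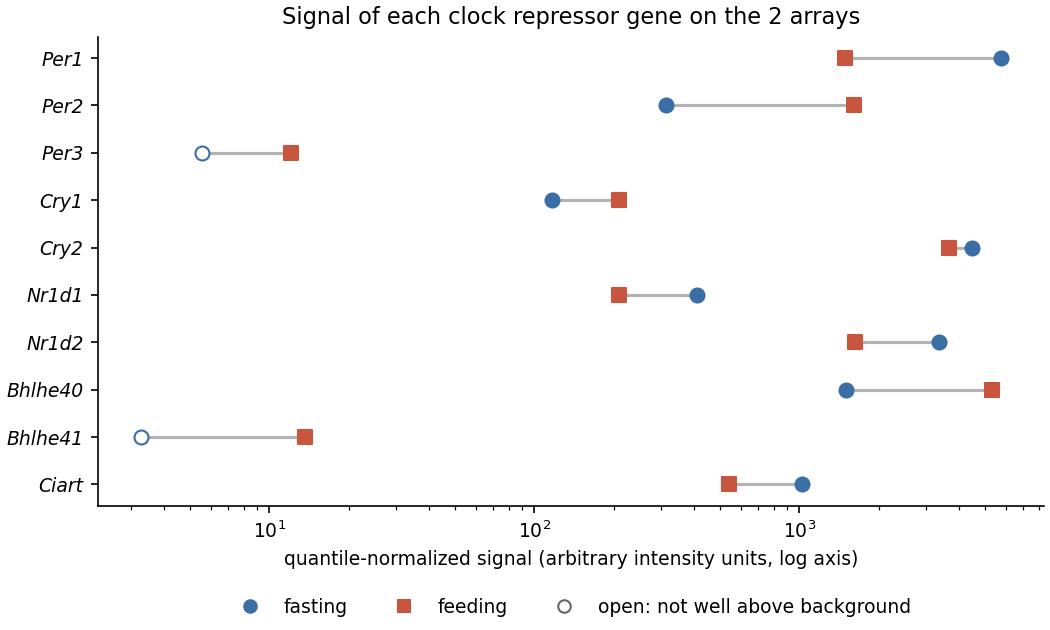
Quantile-normalized signal of the representing probe of each of the 10 genes (horizontal axis, arbitrary intensity units, log scale) upon fasting (circles) and feeding (squares), 1 array each; an open symbol is a probe not well above background. Per2 and Bhlhe40 lie to the right upon feeding and Per1 and Nr1d2 to the left, and Per3 and Bhlhe41 are open upon fasting; signals of different genes cannot be compared with each other.

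The cryptochromes encode the partners of PER proteins and carry most of the repression of CLOCK and BMAL1. Cry1 (A_52_P420500, NM_007771) had a processed signal of 125.6 ± 13.0 upon fasting and 194.5 ± 19.5 upon feeding, a change of 0.84 with a spot SD of 0.10. Cry2 (A_55_P2016540, NM_009963) had 4551 ± 455 upon fasting and 3642 ± 364 upon feeding, a change of -0.29 with a spot SD of 0.05 and a scanner error of 0.20. Cry1 was thus the higher upon feeding and Cry2 the lower, with 1.12 between their changes, and the Cry2 change was little larger than the scanner error. With scaling by the median Cry2 was at -0.11, within the scanner error, and under normexp, a model-based background correction, Cry1 was at 0.53. Neither was past 2-fold, and 5.47% of genes had a larger increase than Cry1 and 24.5% a larger decrease than Cry2.

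The REV-ERB receptors Nr1d1 and Nr1d2 are heme-binding nuclear receptors that repress Bmal1 and many lipid genes of the liver. Nr1d1 (A_51_P223776, NM_145434) had a processed signal of 433.5 ± 43.5 upon fasting and 195.1 ± 19.6 upon feeding, a change of -0.97 with a spot SD of 0.08. Nr1d2 (A_52_P303891, NM_011584) had 3401 ± 340 upon fasting and 1595 ± 159 upon feeding, a change of -1.05 with a spot SD of 0.06. Both receptors were high upon fasting, and their changes differed by 0.08, which is less than the spot SD of 0.10 for that difference. Nr1d2 and Nr1d1 thus lay on either side of 2-fold by less than this spread. Nr1d2 took rank 697 and Nr1d1 rank 805 of 15198 from the lowest.

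Bhlhe40 and Bhlhe41 encode DEC1 and DEC2, which repress through the same E-boxes that the activators use. Bhlhe40 (A_51_P272553, NM_011498) had a processed signal of 1525 ± 153 upon fasting and 5259 ± 526 upon feeding, a change of 1.83 with a spot SD of 0.05 and a scanner error of 0.20. It was high upon feeding, like Per2, and its change was 0.53 below that of Per2, with a spot SD of 0.08 and a scanner error of 0.29 for the difference. With rank 101 from the highest, 0.658% of genes had a larger increase.

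Bhlhe41 (NM_024469) was the member with more than 1 probe, and both were near background. Probe A_51_P451176 gave 3.84 ± 3.78 upon fasting, not well above background, and 13.0 ± 2.10 upon feeding, well above it. Probe A_55_P2133001 gave 6.18 ± 3.30 upon fasting and 3.68 ± 1.41 upon feeding and was well above background on neither array. The probes pointed in opposite directions, and no change is given for this gene, since the fasting bound of 14.4 lies above the feeding signal of the brighter probe, 13.7 after normalization.

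Ciart (A_52_P63343, NM_001033302) encodes CHRONO, which binds BMAL1 and recruits histone deacetylases to E-boxes. It gave 1054 ± 106 upon fasting and 516.5 ± 51.7 upon feeding in processed signal, a change of -0.92 with a spot SD of 0.06 and rank 883 of 15198 from the lowest. Ciart was high upon fasting, as Nr1d1 was, and the change of Nr1d1 minus that of Ciart was -0.05, smaller in size than the spot SD of 0.10 for the difference.

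Among the 10 members, 2 were at least 2-fold higher upon feeding, where 3.29% of the 16342 measured genes were, and 2 were at least 2-fold lower, where 4.62% were. At 1.5-fold, 3 members were higher (Cry1 joined, though not under normexp) beside 10.5% of all genes, and 4 were lower (Nr1d1 and Ciart joined) beside 10.6%. At 3-fold, Per2 and Bhlhe40 remained on the higher side beside 0.967% of genes, and Per1 on the lower side beside 1.9%. The median change of the 8 members with a change was -0.60, and that of all genes was 0.01; without sign, the median size was 1.01 for the members and 0.29 for all genes. The members' changes lay on both sides of 0, with 3 higher and 5 lower upon feeding. The share past 2-fold also varied with brightness. Of 3 equal groups of measured genes by signal, 9.80% of the dimmest (with Per3 and Bhlhe41), 8.11% of the middle group (with Per2, Cry1, Nr1d1 and Ciart) and 5.80% of the brightest (with Per1, Cry2, Nr1d2 and Bhlhe40) were past 2-fold. The members were chosen with results of these arrays known, so these counts are a description.

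**Figure D3:**
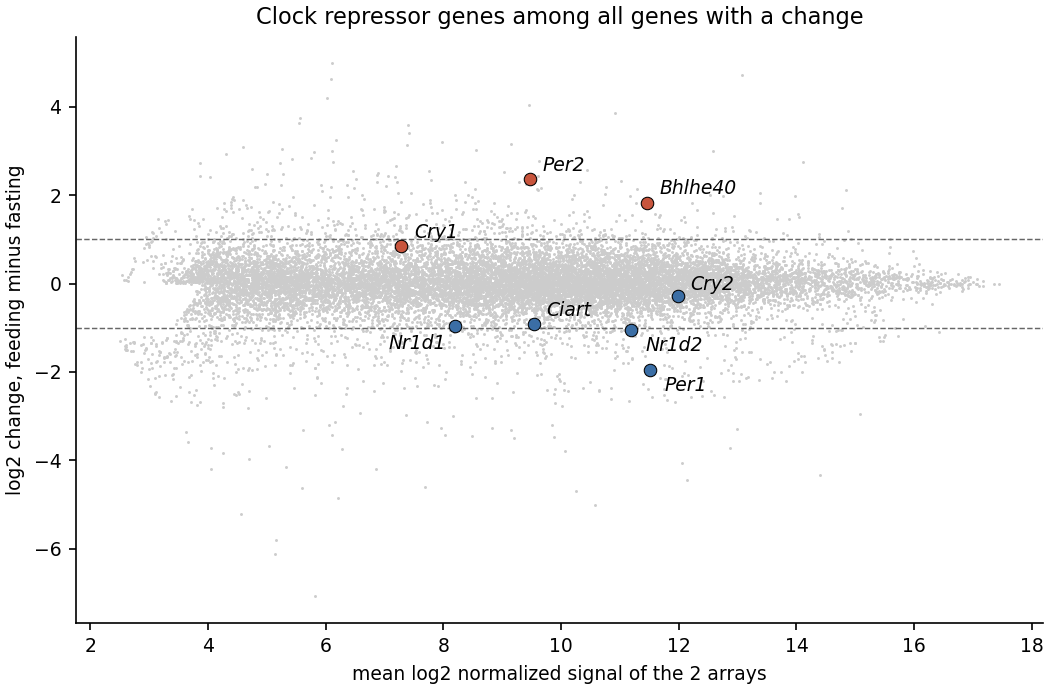
Change of the 8 member genes with a change (large points, red higher and blue lower upon feeding) among all 15198 genes with a change (grey), against the mean log2 normalized signal of the 2 arrays; the vertical axis is the log2 change, feeding minus fasting, lower bounds included, and dashed lines mark 2-fold. Per2 at 2.36 and Bhlhe40 at 1.83 lie above the main cloud and Per1 at -1.95 below it, while Nr1d1, Nr1d2 and Ciart lie at the lower dashed line.

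Of 9 other ways of processing, 4 concern the choice of probes and of dim genes and left the 8 changes at the reported values, since each of these genes has 1 probe that is well above background on both arrays. Under the 5 that could move them (both other scalings, normexp, outlier spots kept, and the raw median signal without background subtraction), directions of the 8 changes were the same, and Per1, Per2 and Bhlhe40 were past 2-fold in each. Nr1d2 was past 2-fold in 2 of the 5, with values from -1.05 to -0.88, and Nr1d1 in 1 of the 5, with values from -1.06 to -0.75. Nr1d2 was not past 2-fold with either other scaling or under normexp, which took the median pixel signal in place of the processed signal and added an offset of 50.

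**Figure D4:**
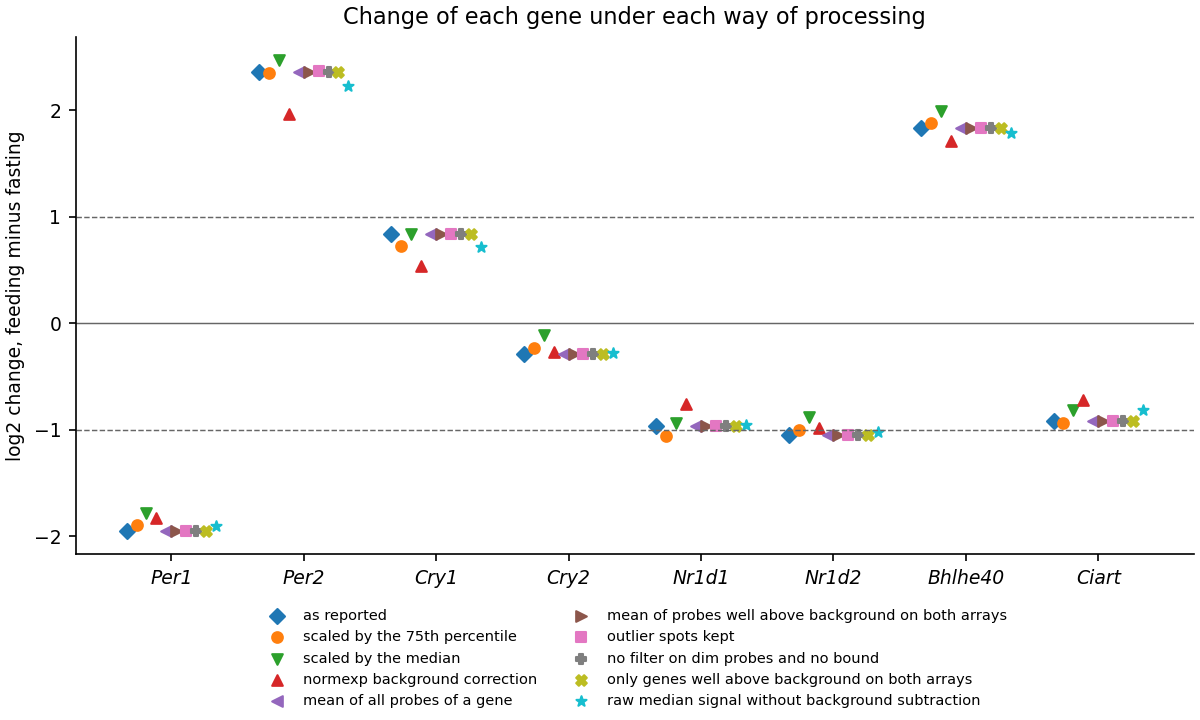
Log2 change, feeding minus fasting, of the 8 member genes with a change as reported (diamonds) and under 9 other ways of processing (other symbols, spread sideways for legibility), 4 of which cannot move these genes; dashed lines mark 2-fold. Every gene kept its sign, Per2 ranged from 1.96 to 2.47, and Nr1d1 and Nr1d2 straddled the lower dashed line.

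The other genes of the clock were read from lists written from general knowledge. Of the genes for activators, Clock, Arntl (BMAL1), Npas2, Arntl2, Rora and Rorb are described; Rora and Rorb encode receptors that drive Bmal1 against the REV-ERBs. All 6 were measured and 3 had a change. Arntl was at -0.43 (1996 upon fasting and 1478 upon feeding), Rora at -0.29 and Clock at -0.11 (above 0 with scaling by the median), and none of these 3 was past 2-fold. Npas2, Arntl2 and Rorb were not well above background upon fasting and have no change.

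The PAR bZIP factors Dbp, Tef and Hlf and their antagonist Nfil3 are the output factors of the loop and bind D-boxes. Hlf was higher upon feeding, at 1.43 (572.1 and 1541 in normalized signal, fasting first), and Nfil3 was lower, at -1.19 (3618 and 1591). Dbp, a strong E-box target, was at 0.09, and its 2 probes lay on either side of 0, from -0.09 to 0.09. Tef was at -0.16, and above 0 with scaling by the median.

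Kinases, phosphatases, ubiquitin ligase subunits and a deubiquitinase act on the stability of the PER, CRY and REV-ERB proteins. Of the 20 listed, all were measured, 0 were at least 2-fold higher and 1 at least 2-fold lower, beside 3.29% and 4.62% of all measured genes, and the list's median was -0.02. That gene was Usp2, a clock-controlled deubiquitinase, at -1.03 (5159 upon fasting and 2526 upon feeding), and it was not past 2-fold under the other scalings or the normexp background correction. Of the partners of the repressor complexes, 10 genes are described and none of these 10 was past 2-fold, the largest changes being those of Tipin at 0.49, the deacetylase gene Sirt1 at -0.47 and Hdac3, the histone deacetylase gene of the REV-ERB corepressor complex, at 0.42. The median of these 10 was 0.0075. The 3 probes of the corepressor gene Ncor1 disagreed, from -0.16 to 1.19, and its brightest probe was at -0.14.

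Clock-controlled genes of the liver outside the loop numbered 14, all measured, with 1 at least 2-fold higher and 5 at least 2-fold lower, beside 3.29% and 4.62% of all measured genes, and a median of -0.09 (0.04 with scaling by the median). The kinase gene Wee1, an E-box target that gates cell division, was higher, at 1.17 (not past 2-fold under normexp). Elovl3, a fatty acid elongase gene, had the largest change, -3.47 (3141 upon fasting and 282.6 upon feeding), followed by Tsc22d3 at -1.72, Ypel2 at -1.55, Coq10b at -1.54 and the deadenylase gene Noct at -1.23.

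Genes that share with Per1 a known response to cAMP or glucocorticoids were listed with earlier results of these data known. Their counts are therefore a description. Those measured were all on the same side as Per1. Of the 15 listed, 14 were measured, all 14 were lower upon feeding, 10 of them at least 2-fold, and the median was -1.69, where 48.6% of all genes with a change were lower and 4.62% of measured genes at least 2-fold. All 14 were also lower with both other scalings and under normexp, with 9 past 2-fold in each. The largest changes were those of Ppargc1a, a coactivator of gluconeogenesis, at -3.26 (1400 upon fasting and 146.1 upon feeding), Pck1, the gene of a rate-limiting enzyme of gluconeogenesis, at -2.95 (96237 and 12469), and the orphan receptor gene Nr4a1 at -2.46 (1367 and 248.3). The probes of Crem disagreed, from -0.90 to 1.09, and Tsc22d3 is also in the list of clock-controlled genes. Per1, at -1.95, lay within the range of this list, from -3.26 to -0.56, and Per2, at 2.36, lay outside it. The list was drawn up around Per1, and whether Per2 shares these responses was not examined, so this does not set the paralogs apart by them. Whether cAMP or glucocorticoids have a part in either change was not tested.

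**Figure D5:**
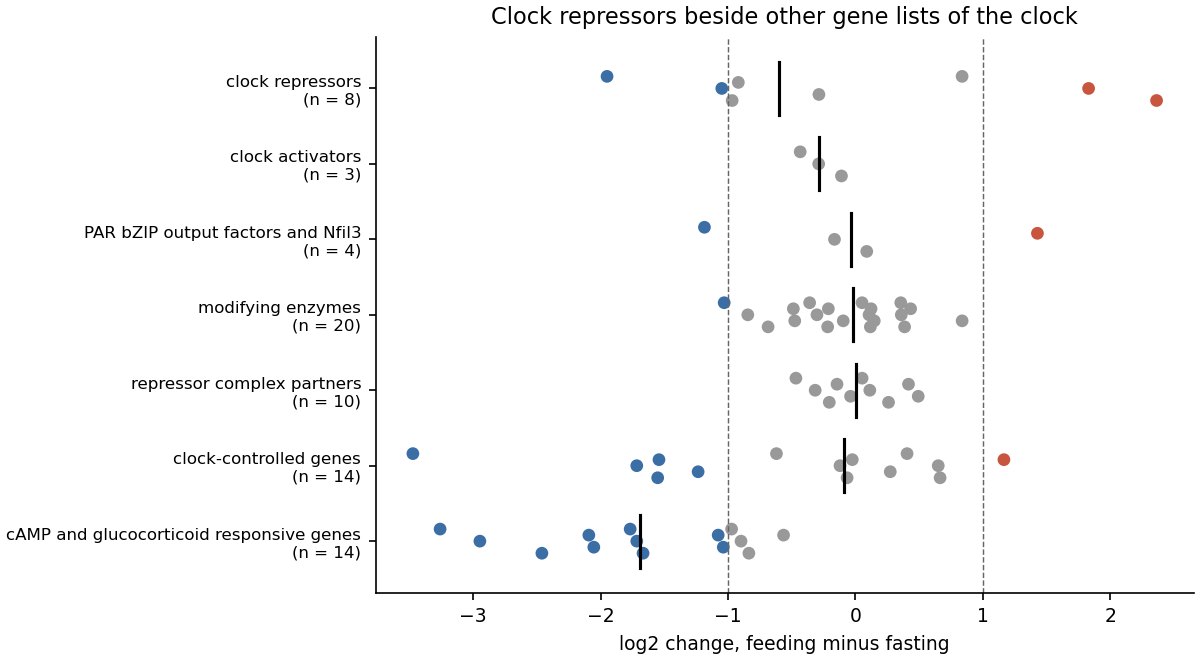
Log2 change, feeding minus fasting, of each gene with a change in the repressor group and in 6 other lists; points are genes (red at least 2-fold higher, blue at least 2-fold lower, grey between), vertical bars are the median of each list and dashed lines mark 2-fold. The repressors reach from -1.95 to 2.36 around a median of -0.60, while all 14 cAMP and glucocorticoid responsive genes lie below 0, around a median of -1.69.

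Markers of the liver's cell types were read beside these results. The summed normalized signal of 8 hepatocyte markers was 754092 upon fasting and 729644 upon feeding, a log2 ratio of -0.05 (0.09 with scaling by the median), and all 8 were well above background on both arrays. The sum of 5 endothelial markers was lower upon feeding, at -0.38, with all 5 lower (Kdr higher with scaling by the median) and Pecam1 at -1.04, that of 5 Kupffer cell markers was at -0.33 (Vsig4 and Cd5l higher with scaling by the median), that of 5 stellate cell and fibroblast markers at -0.36 (Des not well above background upon fasting), and that of the 4 leukocyte markers measured at -0.38 (Cd79a not well above background upon fasting). With scaling by the median the endothelial, Kupffer and stellate sums were at -0.19, -0.14 and -0.18. The sum of 5 cholangiocyte markers was higher, at 0.29, through Sox9 alone, at 2.11. Without Sox9 it was lower, at -0.44, and most of that sum came from Spp1, at -0.46. Krt19 was at -0.31. Epcam was at 0.08 (below 0 with scaling by the 75th percentile and under normexp). Krt7 was at 0.19, a lower bound, as it was not well above background upon fasting. Of the 5 cholangiocyte markers, 3 were thus higher and 2 lower. Pancreas acinar markers (4 of 5 measured, 2 not well above background upon fasting) were at -0.39 and red blood cell markers (2 of 3 measured) at -0.21. Most of the acinar sum came from Ctrb1, at -0.40. Among the dim acinar markers, Cela2a was at -2.70 (48.7 upon fasting and 7.5 upon feeding) and Prss2 at 1.37, a lower bound. These acinar markers thus split, and none was past 2-fold under normexp. The part of cell makeup in the changes of the clock repressors was not tested.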

How the data were processed

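Total RNA from liver was labelled with Cy3 and hybridised to the Agilent Whole Mouse Genome array, and the authors deposited the output of Feature Extraction 11.0.1.1, whose values are intensities per spot that are background-subtracted and not normalized between arrays. The deposited value table holds the mean local background of each spot (44397 of 44397 spots, relative tolerance 1e-06) and was not used. Control and outlier spots (123 upon fasting, 98 upon feeding) were left out, log2 processed signals were averaged per probe and quantile normalized, as in the study's methods, whose 2-fold threshold was used. Probes were named by transcript in the RefSeq table of GRCm38.p6 (27218 of 39402 matched, 69.1%); the array was designed on mm9, so no probe coordinates are given. The brightest probe on average stands for a gene. Where 1 array did not have it well above background, the dim side was set to its own signal or to the lowest signal of probes well above background there, whichever was higher, which makes the change a lower bound; no change is given where this bound is under 1. Single arrays per group allow no test, and their number limits the precision. All members are named, and of each other list those past 2-fold, or the 3 with the largest change where none or more than 6 were; a few further members of these lists are named for reading, and some genes of these lists are not reported here and were left out of their counts. The members and lists were chosen with earlier results of these data known. Analyses used Python 3.11.15, R 4.3.3 and limma 3.58.1, and the procedure was tested on simulated data.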

Additional observations from a re-analysis of the deposited data

How the results depend on the processing

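Per2 and Bhlhe40 were at least 2-fold higher upon feeding under every alternative tried (4 of which cannot move genes with 1 bright probe), and Per1 at least 2-fold lower. The number of members at least 2-fold lower was 1 in place of 2 with scaling by the median and with the normexp background correction (Per1 in both). Of all genes, 4.11% and 1.91% were then lower by 2-fold. The number of members was 1 at a threshold of 3-fold and 4 at 1.5-fold, beside 1.90% and 10.6% of all genes. With scaling by the 75th percentile the number at least 2-fold lower stayed 2, with Nr1d1, at -1.06, in place of Nr1d2, at -0.998. Beside it, 5.03% of all genes were lower by 2-fold. The number at least 2-fold higher was 4 with no filter on dim probes and no bound, where Per3 (1.12) and Bhlhe41 (2.06) joined. It was 3 with the mean of all probes, where Per3 joined and Bhlhe41 was at 0.71. Of all genes, 5.70% and 4.94% were higher by 2-fold under these 2 settings. Under normexp, Per3 was at 0.04 and Bhlhe41 at 0.10, with the median signal in place of the processed signal and an added offset of 50, and Per3 was at 0.18 with the raw median signal; the cause was not tested. The difference between Per2 and Per1 was 3.79 under normexp and 4.14 with the raw median signal without background subtraction, an alternative chosen after seeing the data. Among all genes, 215 were higher and 312 lower by 2-fold under normexp (of 16334), 329 and 422 with the raw median signal (of 16324), and 1177 and 1189 with no filter (of 20652). Scaling by the median put the median of all genes at 0.11, and the medians of 3 other lists then changed sign, to 0.14 for the PAR bZIP factors and Nfil3, 0.16 for the modifying enzymes and 0.04 for the clock-controlled genes, as did those of the hepatocyte (0.12) and Kupffer cell (0.07) markers. With scaling by the 75th percentile the PAR bZIP list, at 0.02, and the modifying enzymes, at 0.04, changed sign too. Naming probes by a gene name column was planned and not run, because the columns used here hold no gene name. No paired analysis was possible because each group has 1 array, and no array could be left out. Depth is not defined for arrays; signal near background limits Per3 and Bhlhe41.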
